A study of Homo sapiens with 8 samples.

Results

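TXNIP, 4 other alpha-arrestin genes (ARRDC1, ARRDC2, ARRDC3 and ARRDC4) and the transcription factor genes MLXIP and MLX were followed across the 4 groups of an RNA-seq series. The 7 genes were chosen by name from the gene symbols of the deposited expression table, without a cut on their measured values. Earlier results of these data were known when they were chosen, so their ranks and medians against all genes are descriptions. All 7 of 7 were in the table of 13730 genes, and all 7 passed the filter on low values. The cells were LN229-TAZ(4SA), made from LN229, a line grown from a human glioblastoma, and every group carried the TAZ(4SA) background. Control cells (EV, which the labels do not spell out) and TrxR1 knockout cells (KO) were each grown in regular medium, which is DMEM with serum, or under glucose deprivation (Glu-). Each of the 4 groups had 2 libraries, called a and b here as names only. The study's purpose was to learn how blocking TrxR1 and withdrawing glucose combine to harm tumour cells. The sources used here give neither the number of knockout clones nor the length of deprivation, so clone-to-clone variation and TrxR1 loss cannot be told apart.

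Alpha-arrestins are adaptor proteins that share an arrestin fold and recruit ubiquitin ligases of the NEDD4 family to membrane cargo. TXNIP binds reduced thioredoxin and limits glucose uptake by promoting internalisation of the glucose transporter GLUT1. Its gene is among the most glucose-responsive ones known: MondoA, encoded by MLXIP, pairs with MLX, enters the nucleus when glucose-6-phosphate accumulates and binds carbohydrate response elements in the TXNIP and ARRDC4 promoters. Thioredoxin is kept reduced by TrxR1, the enzyme targeted in the KO cells.

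Promoter sequences are shown for the 3 members whose window held a match to a carbohydrate response element (TXNIP) or only to an E-box (ARRDC4 and MLX). RefSeq promoter windows (GRCh38.p14) of 250 bases before each start were found for all 7 genes, with 10 windows in all because TXNIP, ARRDC2 and ARRDC3 have more than 1 start. They were searched on both strands for CACGTG (the palindromic E-box bound by this family of factors), CACGNG followed after 5 bases by CNCGNG (the paired E-box-like arrangement of a carbohydrate response element), CCAAT and TGTTTAC (a forkhead core). The windows of TXNIP (chr1:145996601-145996829, minus strand), ARRDC4 (chr15:97960453-97960697, plus strand) and MLX (chr17:42566850-42567067, plus strand) are shown 5′ to 3′, without the bases that GENCODE places in an exon. Capitals mark the paired element in TXNIP and the E-box in ARRDC4 and MLX.
TXNIP: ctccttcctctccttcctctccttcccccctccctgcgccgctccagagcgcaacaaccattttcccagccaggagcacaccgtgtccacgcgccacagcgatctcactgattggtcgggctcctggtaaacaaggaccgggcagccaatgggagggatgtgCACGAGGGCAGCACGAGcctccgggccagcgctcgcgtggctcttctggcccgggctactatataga
ARRDC4: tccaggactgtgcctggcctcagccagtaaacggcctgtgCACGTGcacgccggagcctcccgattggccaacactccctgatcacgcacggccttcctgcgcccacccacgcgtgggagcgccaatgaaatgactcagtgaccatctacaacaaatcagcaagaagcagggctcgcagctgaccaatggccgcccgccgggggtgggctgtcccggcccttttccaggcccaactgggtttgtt
MLX: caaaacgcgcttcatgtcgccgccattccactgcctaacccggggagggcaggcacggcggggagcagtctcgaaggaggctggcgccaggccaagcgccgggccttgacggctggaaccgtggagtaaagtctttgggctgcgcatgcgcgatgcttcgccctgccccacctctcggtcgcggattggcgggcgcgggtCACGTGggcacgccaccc
The paired element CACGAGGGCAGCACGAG lies 88 to 72 bases before the TXNIP start, on the strand of the gene. Of 35116 windows of this length, 149 (0.424%) hold a match to this pattern. Among the 15893 windows of genes in the expression table, 96 (0.604%) do. Among the members only the TXNIP window at the first start held one. The search used this 1 pattern over 250 bases, so it does not show that ARRDC4 lacks a carbohydrate response element. CACGTG was found 210 to 205 bases before the ARRDC4 start and 50 to 45 bases before the MLX start. It occurred in 6.34% of all windows and in 8.08% of those of genes in the expression table. CCAAT was present in at least 1 window of each of the 7 genes (7 of the 10 windows) and in 32.0% of all windows. TGTTTAC occurred in the TXNIP window (124 to 118 bases before the start, on the other strand) and before the second ARRDC3 start (29 to 23 bases), and in 2.98% of all windows. Among windows of genes in the expression table, 33.1% held CCAAT and 2.2% held TGTTTAC. The E-box was thus found before ARRDC4, which fell with deprivation in both cell types, and before MLX. MLX stayed near its level in EV cells and fell by 0.15 on the log2 scale in KO cells. Whether the E-box bears on these levels was not tested. A match is only a run of letters, and binding was not measured.

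Reads recovered from the deposited log2 CPM values (CPM, read counts scaled by the authors to library size) summed to 70083018 to 107229069 per library. TXNRD1, which encodes TrxR1, was at 262 ± 1.5 CPM in the EV and 247 ± 3.3 CPM in the KO libraries in regular medium (SD, n = 2), and at 501 ± 11 and 361 ± 14 CPM under deprivation. A total per gene does not show whether an edited exon was disrupted, so it does not test the knockout label. Glial and glioma markers (9 of 10 in the table) summed to 4914 to 5291 CPM in every library. Of the leukocyte markers 3 of 6 were in the table (CD68, CD14 and CSF1R), and they summed to 26.3 to 27.6 CPM in regular medium and to 46.3 to 55.1 CPM under deprivation. PTPRC, CD3E and AIF1, and all 4 endothelial markers, were not in the table. Keratin genes KRT8 and KRT18 made up the epithelial sum of 179 to 240 CPM. The part of these sums in the results was not tested. WWTR1, the TAZ gene, was at 308 to 362 CPM as group means, a total that cannot separate any TAZ(4SA) transcripts from those of the cells' own gene.

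In EV cells, glucose deprivation was accompanied by a fall of TXNIP to 12.1% of its level, by falls of ARRDC4 and ARRDC1 to 38.8% and 45.5%, and by a rise of ARRDC3 to 234%. ARRDC2 and MLXIP fell by less, and MLX did not pass the test. In KO cells TXNIP, ARRDC4, ARRDC1, ARRDC2, MLXIP and MLX fell and ARRDC3 rose. Of the 7 genes, 1 rose and 5 fell in EV cells, and 1 rose and 6 fell in KO cells (limma, adjusted p under 0.05). Over all 13057 genes tested, 76.2% were called in EV cells (37.5% higher and 38.7% lower) and 73.3% in KO cells (36.5% higher and 36.8% lower), so a call alone says little here and the sizes carry the comparison. Libraries of the media did not overlap for 6 of 7 members in EV cells and 7 of 7 in KO cells, against 90.5% and 83.6% of all genes. The median log2 fold change of the 7 genes was -0.36 in EV and -0.27 in KO cells, against -0.011 and -0.0015 over all genes tested. In bulk RNA, a change in the number of cells that express a gene and a change in its RNA per cell cannot be told apart. Every direction between media rests on reading the header suffix GlcN, which the labels leave unexplained, as the deprived medium.

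**Figure D1:**
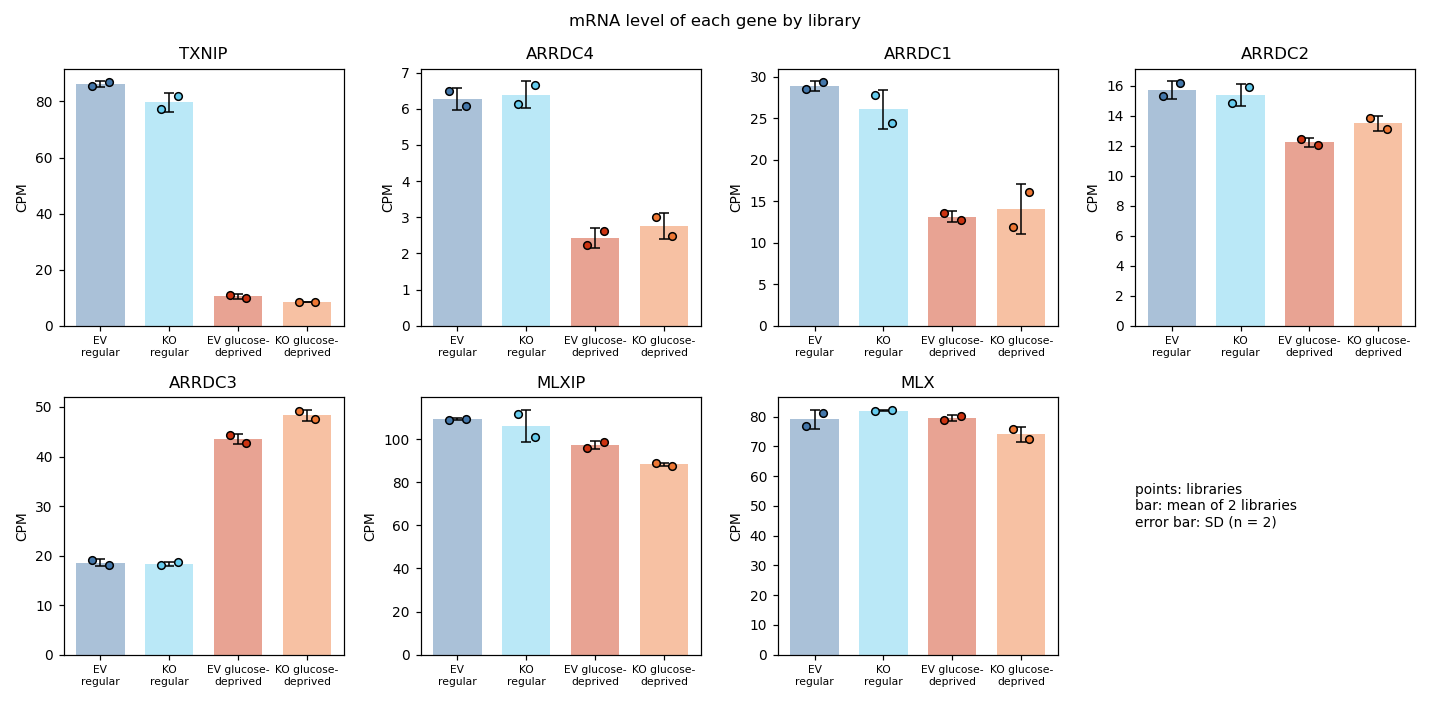
CPM (linear axis from 0) of each gene in the 8 libraries; points are libraries, bars are means of 2 libraries and error bars are SDs. TXNIP was at 77.3 to 87.1 CPM in the 4 libraries from regular medium and at 8.43 to 11.04 CPM in the 4 from deprived medium, whereas ARRDC3 was at 18.1 to 19.1 and 42.8 to 49.1 CPM.

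TXNIP (Entrez 10628; GRCh38 chromosome 1, 145992435 to 145996600, minus strand) was measured at 85.5 and 87.1 CPM in the EV libraries from regular medium and at 11.04 and 9.91 CPM in those from deprived medium. In KO cells it was at 77.3 and 81.9 CPM in regular and at 8.46 and 8.43 CPM in deprived medium. The media did not overlap in either cell type, and the smallest count of TXNIP was 691 reads, in EV glucose-deprived b. The log2 fold change with deprivation was -3.04 ± 0.057 (SE) in EV cells (limma adjusted p = 2.2e-11), an 8.23-fold fall, with a 95% confidence interval of -3.17 to -2.92. In KO cells it was -3.23 ± 0.057 (limma adjusted p = 1.7e-11), a 9.40-fold fall. Ranked by log2 fold change over the 13057 genes, TXNIP had the 6th lowest value in EV cells and the 2nd lowest in KO cells.

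ARRDC4 (Entrez 91947; chromosome 15, 97960698 to 97973838, plus strand) encodes the arrestin most closely related to TXNIP and also restrains glucose uptake. Its level was 6.49 and 6.07 CPM in the EV and 6.12 and 6.66 CPM in the KO libraries in regular medium. Under deprivation it was 2.23 and 2.62 CPM in the EV and 3.01 and 2.50 CPM in the KO libraries. Every deprived library was below every library from regular medium, and EV and KO values were intermixed in regular and overlapped in deprived medium. The log2 fold change was -1.37 ± 0.12 in EV (limma adjusted p = 1.7e-06) and -1.21 ± 0.12 in KO cells (limma adjusted p = 4.8e-06). These are the 153rd and 139th lowest values of all genes tested. ARRDC4 had 183 to 318 reads in the deprived libraries, which is the smallest count behind any value given for the 7 genes.

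The fold fall of TXNIP was larger than that of ARRDC4 in both cell types. The log2 ratio of TXNIP to ARRDC4 was 3.62 to 3.84 in the 4 libraries from regular medium and 1.48 to 2.30 in the 4 from deprived medium, so the libraries of the media did not overlap in this ratio. It is given as a description with no test.

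ARRDC1 (Entrez 92714; chromosome 9, 137605654 to 137615360, plus strand) encodes an alpha-arrestin that drives the budding of microvesicles from the plasma membrane. It was at 28.5 and 29.3 CPM in the EV and 27.7 and 24.4 CPM in the KO libraries in regular medium. Under deprivation it was at 13.6 and 12.7 CPM in the EV and at 11.9 and 16.2 CPM in the KO libraries. The last pair has the widest spread between libraries of a group for this gene, and it encloses both EV values. The log2 fold change with deprivation was -1.14 ± 0.12 in EV (limma adjusted p = 6.6e-06) and -0.91 ± 0.12 in KO cells (limma adjusted p = 4.2e-05). The antisense gene ARRDC1-AS1 overlaps the end of ARRDC1 by 29 bases and also fell, by 0.55 on the log2 scale in EV and by 0.37 in KO cells. The library kit does not mark strand, so reads in this 29-base overlap cannot be assigned. Another annotated transcript, AL590627.2, lies on the strand of ARRDC1 and overlaps it by 9617 bases, introns counted. It was not in the expression table, and how many ARRDC1 reads it shares was not tested.

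ARRDC2 (Entrez 27106; chromosome 19, 18001132 to 18014102, plus strand) encodes an alpha-arrestin whose cargo is less well described. It changed least among the alpha-arrestins. It was at 15.3 and 16.2 CPM in the EV and 14.9 and 15.9 CPM in the KO libraries in regular medium. Deprived EV libraries gave 12.46 and 12.04 CPM, and deprived KO libraries 13.8 and 13.1 CPM. With deprivation it fell by 0.36 ± 0.061 on the log2 scale in EV (limma adjusted p = 2.8e-04) and by 0.19 ± 0.061 in KO cells (limma adjusted p = 0.016). The KO call was lost without KO glucose-deprived b (adjusted p = 0.0883) or KO regular b (adjusted p = 0.103).

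ARRDC3 (Entrez 57561; chromosome 5, 91368724 to 91383359, minus strand) encodes an alpha-arrestin that is linked to the traffic of beta-adrenergic receptors and integrin beta 4. It was the only one of the 7 genes called higher with deprivation. Its level was 19.1 and 18.1 CPM in the EV and 18.1 and 18.7 CPM in the KO libraries in regular medium, and EV and KO libraries overlapped. Under deprivation it was 44.3 and 42.8 CPM in the EV and 49.1 and 47.5 CPM in the KO libraries. It rose by 1.23 ± 0.048 on the log2 scale in EV (limma adjusted p = 4.7e-09) and by 1.39 ± 0.048 in KO cells (limma adjusted p = 2.1e-09), the 478th and 339th highest of all genes tested. ARRDC3-AS1 overlaps ARRDC3 by 3011 bases in the annotation and was not analysed here.

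MLXIP (Entrez 22877; chromosome 12, 122078722 to 122147347, plus strand), the gene of MondoA, was at 109.1 and 109.5 CPM in the EV and at 111.5 and 101.0 CPM in the KO libraries in regular medium. Under deprivation it was at 96.0 and 98.5 CPM in the EV and 88.8 and 87.8 CPM in the KO libraries. Both KO values lay below both EV values in deprived medium. The log2 fold change with deprivation was -0.17 ± 0.046 in EV (limma adjusted p = 0.0063) and -0.27 ± 0.046 in KO cells (limma adjusted p = 3.5e-04). Without EV glucose-deprived a the EV call was lost (adjusted p = 0.0519).

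MLX (Entrez 6945; chromosome 17, 42567068 to 42573239, plus strand), the shared dimer partner of MondoA and its paralogue ChREBP, was nearly constant. It was at 76.7 and 81.4 CPM in the EV and 81.9 and 82.2 CPM in the KO libraries in regular medium, and at 78.8 and 80.2 CPM in the EV and 75.9 and 72.3 CPM in the KO libraries under deprivation. The EV media overlapped, with a log2 fold change of 0.0093 and a 95% confidence interval of -0.082 to 0.10 (limma adjusted p = 0.84), and its sign turned with total-read scaling. In KO cells MLX fell by 0.15 on the log2 scale (limma adjusted p = 0.0081), a call lost without KO glucose-deprived b (adjusted p = 0.0505). MLX overlaps PSMC3IP on the other strand by 925 bases, introns counted, and PSMC3IP changed by -0.29 in EV and -0.17 in KO cells. Strand is not marked, so reads in this overlap cannot be assigned, and their part in the MLX values was not tested. MLXIPL, the ChREBP gene, was not in the table and is not analysed here.

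**Figure D2:**
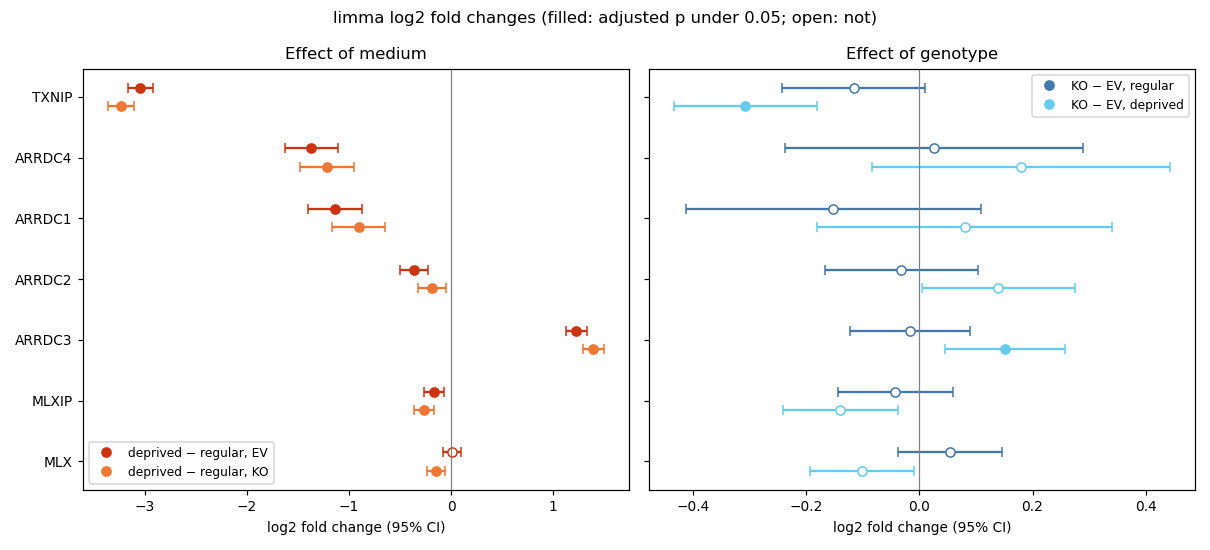
Log2 fold changes with 95% confidence intervals for the 7 genes, deprived against regular medium on the left and KO against EV cells on the right (the horizontal scales differ); filled points had a limma adjusted p under 0.05. TXNIP lies near -3 in both cell types and ARRDC3 above 1, while all genotype differences lie between -0.31 and 0.18.

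In regular medium, none of the 7 genes differed between KO and EV cells beyond the threshold. None was called by limma (0 of 7, with 0 at an unadjusted p under 0.05) or by voom, limma's method for counts, on the recovered reads (0 of 7, with 1), where 7.25% of all genes were called (3.87% higher and 3.38% lower). The share of all calls that were higher depended on scaling, with 505 genes higher and 441 lower as deposited and 427 and 629 with total-read scaling. The KO minus EV difference in TXNIP was -0.12 ± 0.057 on the log2 scale (adjusted p = 0.25), with a 95% confidence interval of -0.24 to 0.0099. Intervals for the other 6 genes reached from -0.41 to 0.11 for ARRDC1 and -0.24 to 0.29 for ARRDC4, and for ARRDC2, ARRDC3, MLXIP and MLX they lay between -0.17 and 0.15. A difference of a size within its interval is not excluded for any of the 7 genes. KO and EV libraries did not overlap for TXNIP, ARRDC1 and MLX, 3 of 7 members, against 55.4% of all genes.

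In deprived medium KO cells had less TXNIP and slightly more ARRDC3 than EV cells. TXNIP was at 8.46 and 8.43 CPM in KO and 11.04 and 9.91 CPM in EV cells, a fall of 0.31 ± 0.057 on the log2 scale to 80.8% of the EV level (limma adjusted p = 0.0050). The libraries did not overlap, but the call was lost without EV glucose-deprived a (-0.23, adjusted p = 0.0531), and over all alternatives the adjusted p was 0.0045 to 0.0531. ARRDC3 rose by 0.15 ± 0.048 (limma adjusted p = 0.049), a call that sits at the threshold and was lost without the variance trend (adjusted p = 0.0723), without the filter (0.0505), with only the 2 groups compared (0.0547) and without each of 6 libraries (adjusted p = 0.0767 to 0.262): every EV library and every deprived KO library. MLXIP was at 90.7% of the EV level (-0.14, adjusted p = 0.055), MLX at 93.2% (-0.10, adjusted p = 0.11) and ARRDC2 at 110.2% (0.14, adjusted p = 0.13). MLXIP passed with only the 2 groups compared (adjusted p = 0.0431) and without KO regular a or b (both 0.0127). ARRDC1 did not pass in the comparison of all libraries, was called higher in KO cells without KO glucose-deprived a (0.30, adjusted p = 0.0285) and had the opposite sign without b (-0.14, adjusted p = 0.301). In all, 1 of 7 genes was called higher and 1 lower, where 19.6% of all genes were called (9.04% higher and 10.6% lower). Libraries did not overlap for 5 of 7 members, against 61.1% of all genes.

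Whether deprivation acted differently in KO and EV cells was tested by the interaction of genotype and medium. None of the 7 genes was called by limma (0 of 7, with 3 at an unadjusted p under 0.05), nor by voom (0 of 7, with 3). Over all genes 4.31% were called, 2.31% higher and 2.01% lower. The split of these calls depended on scaling, with 301 genes higher and 262 lower as deposited, 344 and 210 with total-read scaling and 288 and 328 with median-of-ratios scaling. The values were -0.19 for TXNIP (unadjusted p = 0.038, adjusted p = 0.18, 95% confidence interval -0.37 to -0.013), 0.17 for ARRDC3 (unadjusted p = 0.031, adjusted p = 0.16) and -0.16 for MLX (unadjusted p = 0.023, adjusted p = 0.14). A difference between the cell types in the response of TXNIP was therefore not shown after adjustment. ARRDC1 had an interaction of 0.23 (adjusted p = 0.43) that rose to 0.45 without KO glucose-deprived a (adjusted p = 0.0236).

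Levels can be compared between genes only per length of transcript, so CPM was divided by the total length of annotated exons (3.625 kb for TXNIP and 13.905 kb for MLXIP, the shortest and the longest). In EV cells in regular medium TXNIP stood highest at 23.8 ± 0.30 CPM per kb, followed by MLX (18.6 ± 0.77), MLXIP (7.86 ± 0.022), ARRDC1 (7.57 ± 0.15), ARRDC3 (3.77 ± 0.14), ARRDC2 (3.39 ± 0.13) and ARRDC4 (1.54 ± 0.073). No 2 neighbours in that order had overlapping libraries. In KO cells in regular medium the order was the same, with MLXIP and ARRDC1 overlapping (lowest MLXIP library 7.261 and highest ARRDC1 library 7.262 CPM per kb).

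Under deprivation MLX stood highest (18.7 ± 0.22 CPM per kb in EV cells) and ARRDC3 followed at 8.82 ± 0.22, above MLXIP at 6.995 ± 0.13. ARRDC1 was at 3.44 ± 0.17, TXNIP at 2.89 ± 0.22, ARRDC2 at 2.64 ± 0.064 and ARRDC4 at 0.596 ± 0.069. TXNIP and ARRDC2 lay close, and in KO cells ARRDC2 (2.91 ± 0.11) stood above TXNIP (2.33 ± 0.0070). TXNIP thus moved from the first place to the fifth in EV and the sixth in KO cells. The use of all annotated exons as length, rather than the transcripts made in these cells, limits the order.

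Summed over the 5 alpha-arrestin genes, the length-scaled level was 37.0 to 40.3 CPM per kb in the 4 libraries from regular medium and 18.0 to 19.6 in the 4 from deprived medium. TXNIP made up 57.7% to 59.7% of that sum in regular medium, 15.2% and 16.2% in deprived EV and 11.8% and 12.2% in deprived KO libraries. ARRDC3 went from 9.10% to 10.0% of the sum in regular medium to 47.7% to 52.0% under deprivation. In each deprived library ARRDC3 was the most abundant alpha-arrestin on this scale.

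**Figure D3:**
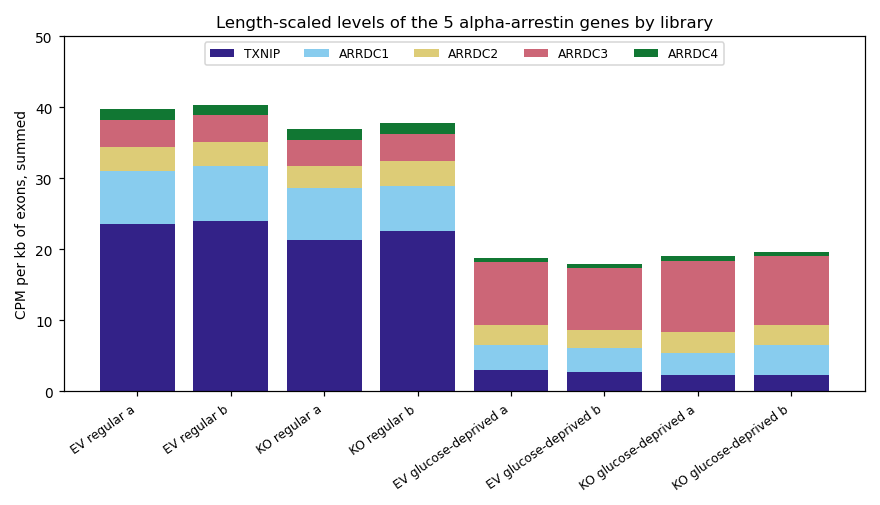
Stacked CPM per kb of exons of TXNIP, ARRDC1, ARRDC2, ARRDC3 and ARRDC4 in each of the 8 libraries (linear axis from 0). The sum fell from 37.0 to 40.3 in regular to 18.0 to 19.6 in deprived medium, and the TXNIP segment gave way to ARRDC3 as the tallest.

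The genes whose profile over the 8 libraries lay nearest to that of TXNIP, by Euclidean distance between mean-centred log2 CPM values, were GJA5, ID3, FGF5, ID1 and KCNH5. Their distances were 0.877 to 1.19, against a median of 4.45 over the other genes tested. GJA5 encodes the gap junction protein connexin 40, FGF5 a fibroblast growth factor, KCNH5 a potassium channel, and ID1 and ID3 inhibitors of differentiation that respond to BMP signals. With deprivation in EV cells their log2 fold changes were -3.27, -3.13 (ID3), -2.54, -3.22 (ID1) and -2.51. In the deprived libraries of both cell types GJA5 was at 0.445 to 0.724 CPM (31 to 64 reads). There FGF5 was at 0.775 to 1.04 CPM (54 to 110 reads) and KCNH5 at 0.379 to 0.569 CPM (28 to 60 reads). With log2(CPM + 1) the log2 fold changes in EV cells of GJA5, FGF5 and KCNH5 were -2.06, -1.72 and -1.32. In KO cells the values were -2.32 for ID1 and -2.49 for ID3, with interactions of 0.90 and 0.64 (limma adjusted p = 0.017 and 0.040) that were lost in several alternatives, up to adjusted p = 0.0946 and 0.15. No gene was as near to TXNIP as the nearest genes were to ARRDC4 (GLIPR1, MPP4 and SLC35G1, at 0.169 to 0.240) and ARRDC3 (CDC6, PXK and NFXL1, at 0.152 to 0.171), whose changes were smaller. The medians for those were 1.87 and 1.90. The points share libraries and scaling, and most of each distance reflects the media.

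The MYC-MAX-MLX network holds the factors that pair with MAX or MLX and bind the same kind of E-box, and MXD1, MXD4 and MNT can pair with either. Of 10 measured, 7 rose and 1 fell in EV cells and 8 rose and 0 fell in KO cells, with medians of 0.42 and 0.40 against -0.011 and -0.0015 for all genes. Over all genes tested 37.5% were called higher and 38.7% lower in EV cells, and 36.5% and 36.8% in KO cells. Every list count given from here on is to be read against those shares. The lists were chosen with earlier results of these data known, so their counts and medians are descriptions. The 1 fall in EV cells was lost without EV glucose-deprived a or EV regular a (0 of 10). MXD1, a MAX partner that represses transcription and opposes MYC, was at 10.3 and 9.97 CPM in the EV and 10.5 and 11.5 CPM in the KO libraries in regular medium. Under deprivation it was at 73.9 and 73.3 CPM in the EV and 125 and 131 CPM in the KO libraries. The log2 fold change was 2.86 in EV and 3.54 in KO cells, and the interaction of 0.68 passed (limma adjusted p = 8.7e-04). MXI1, another repressor of this family, rose by 1.89 in EV and 1.82 in KO cells. MYC, the activator they oppose, rose by 0.91 and 0.85. MLXIPL was 1 of the 11 listed and was not in the table.

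Genes reported as targets of MondoA or ChREBP in various tissues were called in both directions, as were all genes. Of 13 measured (23 were listed), 4 rose and 6 fell in each cell type, where 37.5% and 38.7% of all genes did so in EV and 36.5% and 36.8% in KO cells, with medians of -0.079 in EV and -0.12 in KO cells. RGS16, a regulator of G-protein signalling, rose by 0.99 in EV and 1.22 in KO cells. LDHA, lactate dehydrogenase A, fell by 0.76 in EV and 0.69 in KO cells. KLF10, a zinc-finger factor, was at 59.0 and 61.2 CPM in the EV and 63.5 and 65.7 CPM in the KO libraries in regular medium. Under deprivation it was at 35.9 and 34.7 CPM in the EV and 51.3 and 53.3 CPM in the KO libraries. It fell by 0.77 in EV and 0.30 in KO cells, and the interaction of 0.46 passed (limma adjusted p = 0.0025). TXNIP and ARRDC4 thus fell by more than any named gene of this list.

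Among partners and cargo of the alpha-arrestins, 8 of 12 rose and 3 fell in EV cells, and 8 rose and 1 fell in KO cells (medians 0.41 and 0.33), against 37.5% higher and 38.7% lower over all genes in EV and 36.5% and 36.8% in KO cells. The count of falls in EV cells was 1 without EV glucose-deprived b or EV regular a, and 2 without EV glucose-deprived a. In KO cells that count was 2 without library a of either KO group. DDIT4, a stress-induced inhibitor of mTORC1 that can bind TXNIP, was at 79.9 and 77.0 CPM in EV cells in regular and 282 and 272 CPM in deprived medium. In KO cells it was at 64.2 and 59.6 CPM and at 329 and 368 CPM. It rose by 1.82 in EV and 2.49 in KO cells. SLC2A3, the high-affinity glucose transporter GLUT3, rose by 1.57 and 1.91. TXNRD1 rose by 0.94 in EV and 0.54 in KO cells, with an interaction of -0.39 (limma adjusted p = 0.0025).

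TXN, which encodes thioredoxin, the protein TXNIP binds, differed by genotype. It was at 148 and 143 CPM in the EV and 187 and 194 CPM in the KO libraries in regular medium, and at 135 and 135 CPM in the EV and 185 and 177 CPM in the KO libraries under deprivation. KO libraries were above EV libraries in both media. TXN was higher in KO cells by 0.39 in regular (limma adjusted p = 1.8e-04) and by 0.43 in deprived medium (limma adjusted p = 4.3e-05). SLC2A1, the gene of the GLUT1 transporter that TXNIP internalises, rose with deprivation by 0.37 in EV and 0.28 in KO cells. Its level was 340 and 339 CPM in the EV and 388 and 370 CPM in the KO libraries in regular medium, and 442 and 434 CPM in the EV and 454 and 468 CPM in the KO libraries under deprivation. It was higher in KO cells in regular medium by 0.16 (limma adjusted p = 0.023), a call lost when either EV library of that medium was left out (adjusted p = 0.194 and 0.182) and with 3 others left out in turn (0.0549 to 0.0972).

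The NEDD4 family of ubiquitin ligases binds the PPxY motifs of alpha-arrestins. Of 9 genes, 4 rose and 2 fell in EV cells and 3 rose and 2 fell in KO cells (medians 0.063 and 0.017). The shares called higher lie near those of all genes, 37.5% in EV and 36.5% in KO cells, and the shares called lower below the 38.7% and 36.8% of all genes. HECW2 rose by 1.15 in EV and 1.13 in KO cells, from 7.17 to 8.19 CPM in regular medium to 16.3 to 17.8 CPM in deprived medium over all libraries. WWP2 fell by 0.39 and 0.41, and NEDD4 by 0.34 and 0.21. Of 5 measured genes with an arrestin-like fold outside the alpha-arrestins, 2 fell in EV cells by limma, and 38.7% of all genes did. VPS26B, a retromer subunit, fell by 0.23, and ARRB1, which encodes beta-arrestin 1, by 0.35 in EV cells. The ARRB1 call was lost without EV glucose-deprived b (adjusted p = 0.138) or EV regular a (0.0727), which left 1 of the 5 called lower.

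AMPK, the kinase that senses low energy and marks TXNIP for degradation, had 7 of 8 listed genes measured, counting its activator STK11. In EV cells 2 rose and 2 fell, and in KO cells 3 rose and 2 fell (medians -0.040 and 0.067). Of all genes 37.5% were called higher and 38.7% lower in EV cells, and 36.5% and 36.8% in KO cells. The AMPK counts in KO cells changed in some runs with 1 library left out, and those in EV cells did not. PRKAB2, a regulatory beta subunit, was at 79.6 to 81.0 CPM in EV cells in regular and 188 to 193 CPM in deprived medium, a rise of 1.248. It rose by 1.17 in KO cells. PRKAG1 rose by 0.53 in EV and 0.34 in KO cells, while PRKAG2, another gamma subunit, fell by 0.63 in each.

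The last lists hold regulators reported to act on TXNIP or other alpha-arrestin genes. FOXO factors and their targets rose in 10 of 13 and fell in 1 of 13 genes in EV cells, and rose in 12 of 13 in KO cells (medians 0.47 and 0.66). Beside these stand 37.5% higher and 38.7% lower over all genes in EV cells, and 36.5% and 36.8% in KO cells. In both cell types the count of rises in the FOXO list was lower in some runs with 1 library left out. CCNG2, a cyclin linked to cell cycle exit, was at 9.82 to 11.7 CPM in regular and 52.4 to 65.0 CPM in deprived libraries, and rose by 2.48 in EV and 2.35 in KO cells. KLF15, a zinc-finger factor that promotes amino acid breakdown and gluconeogenesis, rose by 2.37 and 2.35 from under 1 CPM, values that were 1.501 and 1.55 with log2(CPM + 1). FBXO32, a ubiquitin ligase subunit, rose by 1.16 and 1.01. Glucocorticoid receptor and target genes rose in 6 of 9 and fell in 1 of 9 in EV cells, and rose in 7 of 9 and fell in 1 of 9 in KO cells (medians 0.47 and 0.61), against the same shares of all genes (37.5% higher and 38.7% lower in EV, 36.5% and 36.8% in KO cells). The count of falls in KO cells was 2 without KO glucose-deprived a. TSC22D3 (GILZ) rose by 1.60 and 1.63, KLF9 by 1.36 and 1.35, and the clock gene PER1 by 1.08 and 0.88. FKBP5, on the same list, went the other way. It was at 28.4 and 28.6 CPM in regular and 20.5 and 22.1 CPM in deprived EV libraries. In KO libraries it was at 30.2 and 30.6 CPM in regular and 24.9 and 23.0 CPM in deprived medium. KLF9 was lower in KO than in EV cells in both media, by 0.42 in regular (limma adjusted p = 4.7e-04) and 0.43 in deprived medium (limma adjusted p = 1.9e-04).

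**Figure D4:**
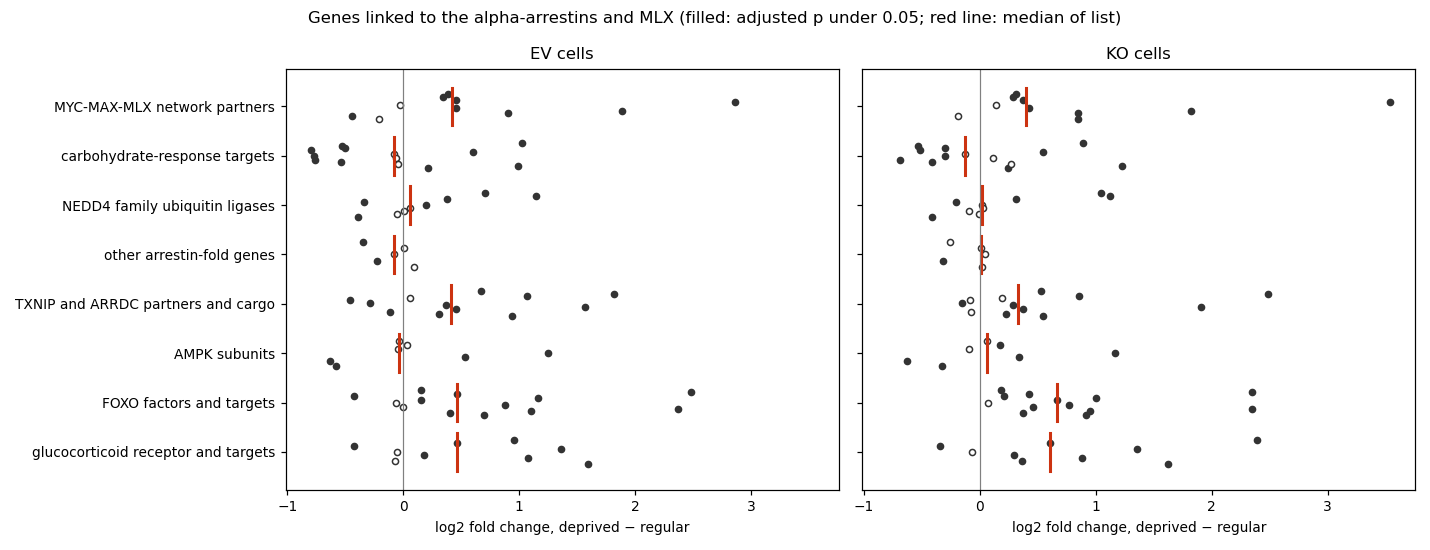
Log2 fold change with deprivation of each tested gene of the 8 linked lists, in EV and KO cells on one horizontal scale; points are genes and bars are list medians. Medians of the FOXO, glucocorticoid, MYC-MAX-MLX and partner lists lie between 0.33 and 0.66, and those of the other 4 lists between -0.12 and 0.067.

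Calls between KO and EV cells in these lists were less firm than those between media. Of 12 named list genes called in regular medium, 10 lost the call with 1 library left out, with adjusted p up to 0.223, and TXN and KLF9 kept it. In deprived medium 8 of 19 lost it, with adjusted p up to 0.23. For deprivation in EV cells 1 of 23 (ARRB1) lost it.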

How the data were processed

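Total RNA of 8 libraries was sequenced after SMART-Seq and Nextera XT preparation, per the labels' protocols, which does not mark strand. HISAT2, edgeR and GRCh38 were used, per the submitters' processing notes. The counting tool and annotation are not given in the sources used here. The deposited values are log2 CPM with a small prior count, scaled to library size by the authors. Whole reads were recovered for 100% of values within a tolerance of 0.05, and CPM is printed without the offset of 0.023. The summed reads are a lower bound of depth. The column headers give the group and no replicate number.

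The 13057 genes whose mean log2 CPM reached 0 (673 did not) entered 1 limma model of the 4 groups (version 3.58.1, R 4.3.3), with a variance trend, 4 residual and 6.29 prior degrees of freedom. Two-sided p-values were Benjamini-Hochberg adjusted over those genes. They measure the spread between libraries, which may be technical, since the labels do not describe separate cultures. Within groups Pearson's r was 0.995 to 0.996 and reads differed beyond counting noise. Alternatives were other scalings, filters and priors, 1 library left out and, chosen after seeing the data, limma's voom on the recovered reads (9920 genes called for deprivation in EV cells). The fit was tested on simulated data. Coordinates and exon lengths are from GENCODE 29.

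The members and lists were chosen with earlier results of these data known. Named genes are the members, up to 3 called genes per list and contrast by smallest adjusted p, the nearest profiles, and TXNRD1, TXN, SLC2A1 and WWTR1.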

Additional observations from a re-analysis of the deposited data

Results flagged for a closer look

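For 10 named genes the change with deprivation differed between KO and EV cells by the interaction test (limma, adjusted p under 0.05), and none of them is one of the 7 genes followed. Over all genes tested, 4.31% were called in this test. Among the named genes, 8 had been picked for a small adjusted p in it, so their count was fixed by that choice. DUSP1, a phosphatase of MAP kinases, rose more in KO cells, with a difference of 1.44 on the log2 scale. It was at 15.1 and 14.4 CPM in deprived EV and 38.9 and 40.1 CPM in deprived KO cells, against 7.09 to 7.95 CPM in regular medium. The difference was 0.68 for MXD1 and 0.671 for DDIT4, which rose more in KO cells. For SGK1, a kinase induced by glucocorticoids, it was 0.434, with 28.0 to 32.9 CPM in all libraries except the deprived KO ones, at 41.4 and 41.2 CPM. The difference was 0.464 for KLF10, 0.901 for ID1 and 0.637 for ID3, which fell less in KO cells. TXNRD1, at -0.391, rose less in KO cells. CITED2, a transcriptional coregulator, differed by 0.639, with a change of -0.43 in EV and 0.21 in KO cells. FOXO1 differed by 0.512, with 0.15 in EV and 0.66 in KO cells. The adjusted p reached 0.0661 for CITED2, 0.0621 for FOXO1, 0.0946 for ID1 and 0.15 for ID3 in some alternative, and 0.048 at most for DUSP1, MXD1, DDIT4, SGK1, KLF10 and TXNRD1.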

How the results depend on the processing

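The falls of TXNIP, ARRDC1 and ARRDC4 and the rise of ARRDC3 with deprivation kept direction and call in every alternative run. Differences near 0 changed sign. MLX with deprivation in EV cells went to -0.025 with total-read scaling, -0.0029 without EV glucose-deprived b and -0.033 without EV regular a (up to 0.052 with 1 library left out). For KO against EV cells in regular medium, ARRDC2 went to 0.0067 without EV b and 0.018 without KO a (lowest -0.082), ARRDC3 to 0.020 without EV a and 0.0072 without KO a (lowest -0.054), ARRDC4 to -0.023 without EV b and -0.035 without KO b (highest 0.086), and MLXIP to 0.029 without KO b (lowest -0.11). ARRDC1 in deprived medium went to -0.14 without KO b and 0.30 without KO a. The cause was not tested. Without the variance trend the genes called fell to 433 for KO against EV in regular medium and 223 for the interaction. In deprived medium, members called higher in KO cells went from 1 to 0 with no filter, no variance trend or only the 2 groups compared, and members called lower from 1 to 2 with only the 2 groups. With 1 library left out, genes called ranged from 8894 to 10125 (deprivation, EV), 9041 to 9365 (deprivation, KO), 168 to 1414 (KO, regular; 168 without EV regular a, 198 without b), 852 to 3058 (KO, deprived; 892 without EV glucose-deprived a, 852 without b) and 147 to 1579 (interaction; 1579 without KO glucose-deprived a). Members called higher in deprived KO cells then ranged from 0 to 1 (ARRDC3, or ARRDC1 without KO glucose-deprived a) and lower from 0 to 2, and 0 to 1 for the interaction. Members that fell with deprivation were 4 to 5 in EV and 4 to 6 in KO cells. The TXNIP difference in deprived medium ranged from -0.385 to -0.23. With log2(CPM + 1), changes with deprivation in EV and KO cells were -2.06 and -2.28 for GJA5, -1.72 and -1.85 for FGF5, -1.32 and -1.20 for KCNH5 and 1.501 and 1.55 for KLF15. The planned quasi-likelihood and negative binomial tests on recovered reads were not run. Limma's voom on those reads, chosen after seeing the data, lost no member's call. No paired analysis was possible because the column headers carry no replicate numbers. With 2 libraries a group, the precision rests on pooling the spread over groups, and a group left with 1 library is assumed to vary like the others.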
